A study of Rattus norvegicus with 24 samples.

Results

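The transcripts of 6 genes that build, mature or bind collagen fibrils were followed in rat muscle on 13 probe sets, out of 8740 non-control probe sets that name 4736 genes singly. Col1a1 has 4 probe sets, Sparc has 4, Col3a1 has 2, and Col1a2, Col5a2 and Pcolce have 1 each. They were found by the gene symbol that the platform annotation gives, and every probe set of each gene was kept. The 6 genes were chosen by their measured signal, which was lower in older muscle, so their age changes, and their differences between the muscles at any 1 age, are given here as a description. Where the fit's calls among these are counted, the share over all probe sets stands beside them and nothing is read from the count. All 13 probe sets were above the 40th percentile of the array on all 24 arrays.

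The samples were extraocular muscles (EOM), which turn the eyeball, and extensor digitorum longus (EDL), a hindlimb muscle that extends the toes, from rats (Rattus norvegicus) aged 6, 18 and 30 months. The 6 groups were EOM at 6, 18 and 30 months and EDL at 6, 18 and 30 months, with 4 arrays each. No treatment, genotype, strain or sex was named for any group in the sources used here. Each RNA sample pooled tissue of 4 animals, so a value is the average of a pool and a p-value measures the spread between pools, but no source used here says if the same rats gave both muscles.

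Type I collagen, the main tensile fibre of muscle connective tissue and tendon, is a triple helix of Col1a1 and Col1a2 chains. Type III collagen, made of Col3a1 chains, accompanies it in softer and growing tissue, and type V collagen, which contains Col5a2, lies inside the type I fibril and limits its width. Procollagens are secreted with end pieces that must be cut off before fibrils form. Pcolce (procollagen C-endopeptidase enhancer) speeds the cut at the C-terminal end, and Sparc (osteonectin) is a secreted glycoprotein that binds collagen and is used in its assembly into fibrils. In muscle these transcripts come largely from fibroblasts between the fibres.

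Promoters are printed for the members whose differences carry the results below and that were present in the RefSeq promoter table (assembly GRCr8), which held 4 of the 6 members. Each runs 5′ to 3′ on the gene's strand, and the windows of Pcolce and Sparc are the 250 bases that end just before the annotated start. Both strands were searched for CCAAT, which reads ATTGG on the opposite strand, for the TATAAA letters of a TATA box, for GGGCGG, which reads CCGCCC on the opposite strand, and for GGAGG, which reads CCTCC on the opposite strand. Capitals mark matches to the first 3 motifs in Col1a2 and Pcolce, and matches to GGAGG in Sparc.
Col1a2, chr4:33518307-33518426, + strand: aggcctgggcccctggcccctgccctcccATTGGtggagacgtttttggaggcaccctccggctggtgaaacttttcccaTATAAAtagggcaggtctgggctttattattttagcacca
Pcolce, chr12:24720722-24720971, + strand: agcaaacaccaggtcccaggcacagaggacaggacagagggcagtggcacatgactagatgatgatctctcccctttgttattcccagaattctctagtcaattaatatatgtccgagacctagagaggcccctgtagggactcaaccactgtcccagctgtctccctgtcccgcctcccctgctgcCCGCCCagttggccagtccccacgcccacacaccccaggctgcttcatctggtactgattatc
Sparc, chr10:40038817-40039066, − strand: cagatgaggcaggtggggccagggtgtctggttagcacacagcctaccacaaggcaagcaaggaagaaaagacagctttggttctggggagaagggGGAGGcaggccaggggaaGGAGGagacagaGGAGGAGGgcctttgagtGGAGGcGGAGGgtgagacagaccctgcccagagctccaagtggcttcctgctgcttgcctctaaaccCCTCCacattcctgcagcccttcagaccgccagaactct

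The Col1a2 stretch is the upstream 120 bases of the same window, with the ATTGG match starting 221 bases and the TATAAA match 170 bases before the annotated start. Pcolce had 1 GGGCGG match, on the opposite strand 63 bases before its start, and neither CCAAT nor TATAAA. Sparc had none of those 3 motifs but 7 GGAGG matches, counting overlapping ones, and Col1a2 had 6 over its whole window. The Col5a2 window (chr9:55090152-55090401, − strand) held none of the first 3 motifs and 1 GGAGG match. Over 33469 promoters of the same length, CCAAT was present in 34.02%, TATAAA in 12.9%, GGGCGG in 30.5% and GGAGG in 64.7%, and over 3 GGAGG matches were present in 9.9%. A match describes the letters in the window and is not a measured binding site. Col3a1 and Col5a2 are neighbours on chromosome 9 with 0 annotated genes between them.

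The labelled tissues carried their own muscle markers. Myh13, the myosin heavy chain particular to extraocular muscle, had mean signals of 13491.0, 15633 and 15791 units in the EOM groups at 6, 18 and 30 months, against 87.5, 99.0 and 98.3 units in EDL. Array medians lay between 89.7 and 136.8 units, and EDL at 30 months replicate 1 had the lowest median Spearman correlation with its own group (0.873, against at least 0.915 on the other arrays). EDL at 6 months replicates 1 and 2 had 3′ to 5′ actin ratios of 2.54 and 3.54, against 1.13 to 2.12 on all others. Deviations from group means, over all probe sets, were compared between arrays of different groups. Their median correlation was 0.16 (−0.13 to 0.53, 120 pairs) among replicates 1 and 2 or among replicates 3 and 4, pairs with the same number included, and −0.17 (−0.38 to 0.09, 120 pairs) between these sets, so summaries are also given within each set. Fibroblast markers (6 of 9 listed were on the array) summed to 20235 to 32711 units in EOM at 6 months, 23722 to 30957 at 18 months and 15624 to 29620 at 30 months. In EDL the same sums were 13094 to 18557, 7873 to 15105 and 9181 to 17925 units. Dcn (decorin), 1 of the 6, made up most of these sums. At 6 months its mean was 19714 of a mean sum of 26497 units in EOM and 11369 of 15734 in EDL. In a bulk sample, fewer fibroblasts and less collagen RNA per fibroblast cannot be told apart.

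In EOM most collagen transcripts were lower at 18 months and lower again at 30 months, whereas in EDL they were already low at 18 months and stayed near that level at 30 months. The EDL course describes 12 of the 13 probe sets, and the one left out here after its values were seen is Sparc rc_AA892248_at, described last. In EOM, Pcolce and Sparc rc_AA946313_s_at had little or no change by 18 months (log2 −0.02 and −0.11), with signs that turned when some arrays were left out. Over the 12 sets, the log2 change in EOM was −0.86 to −0.02 from 6 to 18 months, −0.82 to −0.25 from 18 to 30 months and −1.61 to −0.36 over the whole span. In EDL it was −2.67 to −1.06 from 6 to 18 months, −0.20 to 0.41 from 18 to 30 months and −2.49 to −1.17 over the whole span. By 18 months, EOM had reached 4.88% to 58.3% of its log2 change to 30 months (median 48.7%), and EDL had reached 84.3% to 120.3% (median 101.1%). These shares are ratios given without an error, and the EOM split differed between the replicate sets. In replicates 1 and 2 the median EOM change was −0.65 from 6 to 18 months and −0.22 from 18 to 30 months. In replicates 3 and 4 these medians were −0.45 and −0.92.

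**Figure D1:**
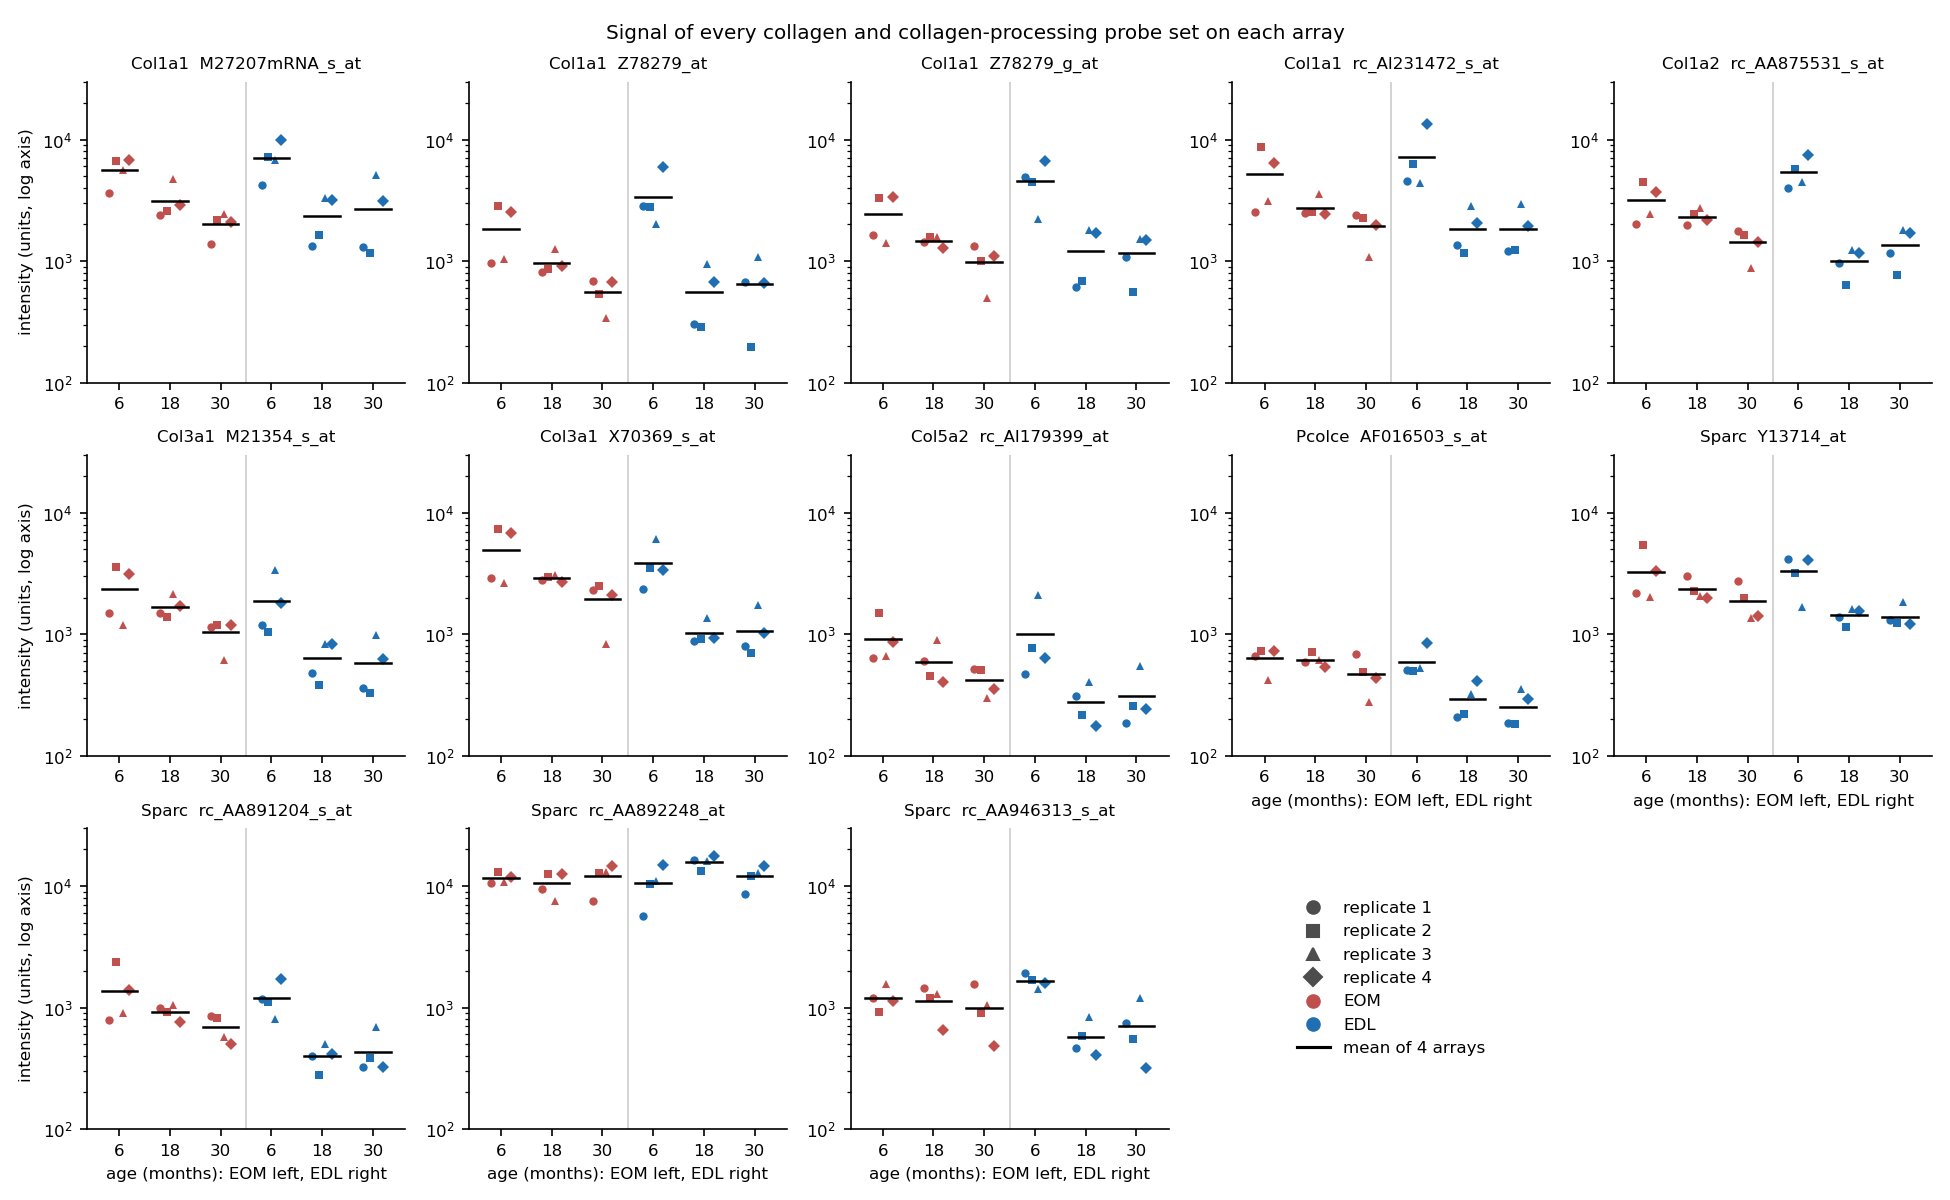
Intensity of each of the 13 probe sets on all 24 arrays (log axis, units of signal), with EOM at 6, 18 and 30 months on the left of each panel and EDL on the right. Points are arrays, their shapes the replicate numbers, and lines the means of 4 arrays; in 12 panels all EDL arrays at 18 months lie below all EDL arrays at 6 months.

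Col1a2, the second chain of type I collagen, had the smallest error among the chains. Its signal in EOM was 1999, 4509, 2453 and 3707 units at 6 months, 1994, 2424, 2726 and 2157 at 18 months and 1771, 1628, 884 and 1441 at 30 months. In EDL it was 3971, 5754, 4514 and 7388 units at 6 months, 968, 634, 1229 and 1159 at 18 months and 1156, 766, 1812 and 1704 at 30 months. In EOM the 18-month arrays overlapped those at 6 months, while all 4 at 30 months lay below both earlier groups. In EDL all 4 arrays at 18 months and all 4 at 30 months lay below every array at 6 months, and the 18- and 30-month arrays overlapped. The log2 change in EOM was −0.38 (SE 0.29) at 18 against 6 months and −0.74 (SE 0.29) at 30 against 18 months, and the whole span was 2.17-fold lower. In EDL it was −2.44 (SE 0.29) at 18 against 6 months, 5.43-fold lower, and 0.41 (SE 0.29) at 30 against 18 months.

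Col1a1, the first chain of type I collagen, gave the same order of events on all 4 of its probe sets, which read 1 transcript and are not independent. On M27207mRNA_s_at, EOM had 3619.5, 6599, 5567 and 6722 units at 6 months, 2400.3, 2566, 4689 and 2892 at 18 months and 1389.5, 2162, 2438 and 2098 at 30 months. EDL had 4241, 7194, 6846 and 9866 units at 6 months, 1318, 1645, 3309 and 3196 at 18 months and 1312, 1163, 5068 and 3127 at 30 months. The 4 EOM arrays at 30 months all lay below the 4 at 6 months, and the 18-month arrays overlapped both. In EDL at both later ages the arrays of replicates 3 and 4 were above those of replicates 1 and 2, and the 30-month array of replicate 3 reached the range of the 6-month group.

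The other Col1a1 sets differed in size but not in order. Z78279_at had 968, 2850.2, 1030.4 and 2553 units in EOM at 6 months, 808, 867, 1261 and 915 at 18 months and 680.1, 539, 339.7 and 670.2 at 30 months. In EDL it had 2820.2, 2759.6, 2004 and 5969 units at 6 months, 304, 288, 948 and 677 at 18 months and 668, 197, 1084 and 656 at 30 months. In EOM at 30 against 6 months the 4 sets were 2.76-fold, 3.05-fold, 2.43-fold and 2.49-fold lower, in the order M27207mRNA_s_at, Z78279_at, Z78279_g_at and rc_AI231472_s_at. In EDL at 18 against 6 months they were 3.08-fold, 6.38-fold, 3.99-fold and 3.68-fold lower in the same order. The Z78279_at value, −2.67 (SE 0.47) on the log2 scale, was the largest EDL change of the 13.

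Col3a1, the chain of type III collagen, had higher means in EOM than in EDL at every age. On X70369_s_at, EOM had 2892, 7338, 2655 and 6787 units at 6 months, 2810.5, 2952, 3096 and 2688 at 18 months and 2335, 2481, 836 and 2121 at 30 months. EDL had 2345, 3513, 6101 and 3368 units at 6 months, 875, 918, 1362 and 937 at 18 months and 795, 707, 1743 and 1023 at 30 months. EOM at 6 months was split, with replicates 2 and 4 high and replicates 1 and 3 near the 18-month arrays. All EOM arrays at 18 months stood above all EDL arrays at 18 and 30 months. The log2 change was −0.62 (SE 0.36) in EOM and −1.84 (SE 0.36) in EDL at 18 against 6 months, and −0.69 (SE 0.36) in EOM and −0.01 (SE 0.36) in EDL at 30 against 18 months.

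On the second Col3a1 set, M21354_s_at, the means in EOM were 2351 ± 1192 units at 6 months, 1688 ± 332 at 18 months and 1041 ± 283 at 30 months (SD, n = 4 each). In EDL they were 1863 ± 1072, 633 ± 236 and 579 ± 308 units (SD, n = 4 each). The set repeated the timing, with 32.0% of the EOM change and 88.4% of the EDL change present by 18 months. Both Col3a1 sets, Col1a2 and Col1a1 rc_AI231472_s_at had 18- and 30-month EOM groups next to each other in the order of the 6 group means, and these were the only neighbours in any member's order whose arrays did not overlap.

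Col5a2, a chain of type V collagen, followed the same course. Its signal was 638, 1506, 667 and 858 units in EOM at 6 months, 601, 451, 895 and 408 at 18 months and 519.9, 506, 299.6 and 352 at 30 months. In EDL it was 469.9, 769.8, 2118 and 637 units at 6 months, 310.0, 218, 409 and 177 at 18 months and 186, 257, 548 and 245 at 30 months. Replicate 3 was the highest EDL array at every age. The EOM arrays at 30 months all lay below those at 6 months, 2.11-fold lower by the fit, and the EDL arrays at 18 months all lay below those at 6 months, 3.16-fold lower.

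Pcolce, the enhancer of C-terminal procollagen cleavage, had the smallest share of its EOM change in place by 18 months, 4.88%, against 84.3% in EDL. EOM had 662, 728, 424 and 723 units at 6 months, 587, 717, 616 and 535 at 18 months and 691, 485, 278 and 436 at 30 months. EDL had 506, 496, 532 and 855 units at 6 months, 208, 219.7, 324 and 413 at 18 months and 188, 182, 354 and 292 at 30 months. In EOM the 3 ages overlapped, with a log2 change of −0.02 (SE 0.29) at 18 against 6 months and −0.47 (SE 0.29) at 30 against 6 months. In EDL every array at 18 and 30 months was below every array at 6 months, with log2 changes of −1.06 (SE 0.29) and −1.25 (SE 0.29). Every EOM array at 18 months was above every EDL array at 18 months.

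Sparc, the collagen-binding glycoprotein, had 3 probe sets with the EDL course of the collagens and 1 without it. Y13714_at had 2202, 5431, 2028 and 3342 units in EOM at 6 months, 3044, 2279, 2079 and 1994 at 18 months and 2727, 1994, 1369 and 1409.9 at 30 months. In EDL it had 4196, 3205, 1683 and 4103 units at 6 months, 1397, 1144, 1618 and 1561 at 18 months and 1309, 1241, 1831 and 1214 at 30 months. The EOM ages overlapped, and the EDL arrays at 18 months were all below those at 6 months, although replicate 3 was nearly level. In EOM at 30 against 6 months the signal was 1.67-fold lower on Y13714_at, 1.85-fold on rc_AA891204_s_at and 1.28-fold on rc_AA946313_s_at. That last value changed sign between the replicate sets, with a log2 change of 0.18 in replicates 1 and 2 and −0.90 in replicates 3 and 4, and its change at 30 against 18 months was 0.06 without EOM replicate 4 at 30 months. In EDL at 18 against 6 months these sets were 2.19-fold, 2.95-fold and 2.98-fold lower, in the same order.

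The remaining Sparc set, rc_AA892248_at, ran differently. It has the symbol Sparc in the platform annotation, and whether it measures Sparc could not be checked. Its mean over the 24 arrays was 12056 units, against 834 to 2267 on the other Sparc sets. It had 10672, 13043, 10859.7 and 11767 units in EOM at 6 months, 9356, 12613, 7489 and 12518 at 18 months and 7572, 12799, 13012 and 14636 at 30 months. In EDL it had 5649, 10416, 11005 and 14852 units at 6 months, 16316, 13357, 15903 and 17565 at 18 months and 8558, 12025, 12751 and 14604 at 30 months. Its highest group was EDL at 18 months, the group in which the other 3 Sparc sets were at or near their lowest, and its EDL log2 change at 18 against 6 months was 0.67 (SE 0.24). The 2 EDL arrays at 6 months with raised actin ratios held its lower values at that age, and without them that change was 0.30. Over the 24 arrays its correlation with the 12 other sets had a median of −0.25 and ran from −0.64 to −0.02, while the 66 pairs among those 12 had a median of 0.78 and ran from 0.51 to 0.96. After group means were subtracted the 66 pairs had a median of 0.60, from −0.10 to 0.91. These correlations describe sets that share arrays, and pairs of 1 gene share a transcript.

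**Figure D2:**
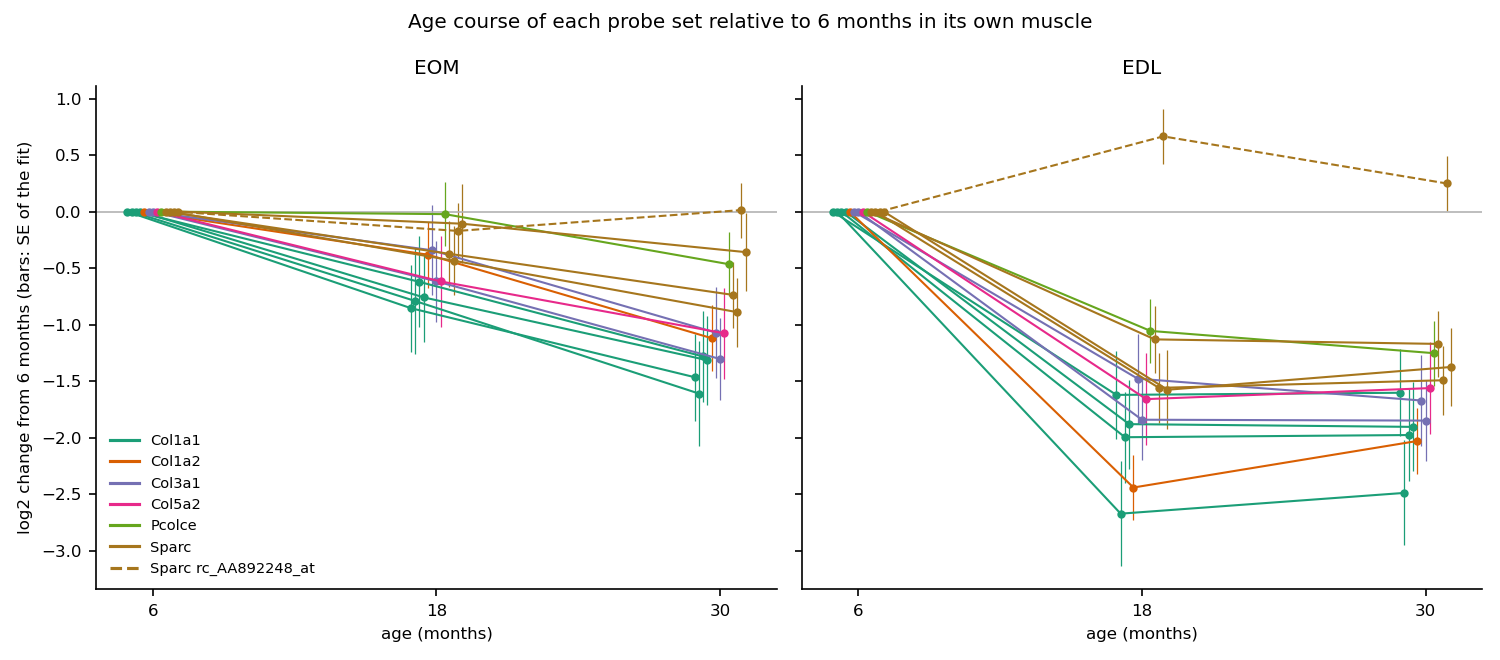
Log2 change of each probe set from 6 months in its own muscle (y axis) against age in months (x axis), EOM in the left panel and EDL in the right, with bars for the SE of the fit. In EOM 12 lines lie below 0 at 18 months, Pcolce and Sparc rc_AA946313_s_at barely, and lower again at 30 months, in EDL the same 12 lines drop by 18 months and then stay near that level, and the dashed Sparc rc_AA892248_at line follows neither course.

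Counts over the members follow from how they were chosen and are given beside the same counts over all 5741 probe sets tested. In EOM, 0 of 13 were called at 18 against 6 months (0.174% of all in either direction), at 30 against 18 months (0.0174%) or at 30 against 6 months (0.0348%). Arrays did not overlap, with the later age lower, in 0 of 13 at 18 against 6 months (2.07%), in 5 at 30 against 18 months (0.888%) and in 7 at 30 against 6 months (1.03%). In EDL at 18 against 6 months, 12 of 13 had non-overlapping, lower arrays (1.22% of all), all of them with a ratio of means above 2 (0.575%), and 7 had an adjusted p under 0.05 in that direction (0.244%). In EDL at 30 against 18 months none of the 13 was called (1.55% in either direction), which does not show that the levels were equal. At 30 against 6 months in EDL, 12 were called lower (0.383%) and 9 had non-overlapping arrays (1.15%). The medians of the 13 log2 changes from 6 to 18, 18 to 30 and 6 to 30 months were −0.43, −0.56 and −1.08 in EOM, and −1.62, 0.02 and −1.60 in EDL. Over all probe sets tested, the medians from 6 to 18 and 6 to 30 months were 0.05 and 0.01 in EOM, and 0.05 and 0.03 in EDL.

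The difference of the changes, EOM minus EDL, had opposite signs in the 2 intervals when all arrays were used. For the 12 sets it was 0.76 to 2.06 (median 1.13) from 6 to 18 months and −1.15 to −0.25 (median −0.55) from 18 to 30 months. Col1a2 had the largest value in both intervals, 2.06 (SE 0.41) and −1.15 (SE 0.41). Over the whole span the difference was 0.14 to 1.02 (median 0.60), and no member was called in any of the 3 differences, among 0%, 0.331% and 0.192% of all probe sets called in either direction. From 18 to 30 months it was negative for 9 of the 12 sets in replicates 1 and 2 (−0.76 to 0.23, median −0.22) and for 12 in replicates 3 and 4 (−1.66 to −0.46). From 6 to 18 months it was positive for all 12 in both, with medians of 1.16 and 1.05. Over the whole span its median was 1.06 in replicates 1 and 2, and 0.26 in replicates 3 and 4, where 3 of the 12 were negative.

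The late EOM step and the early EDL step appeared in both sets of replicates, the EOM step with unequal size. The members were chosen for their age changes on all these arrays, and several probe sets read 1 transcript. The values by set are therefore a description and not a replication. In EOM at 30 against 18 months the median log2 change of the 12 sets was −0.22 in replicates 1 and 2 and −0.92 in replicates 3 and 4, and all 12 were negative in each. In EDL at 18 against 6 months it was −1.77 in replicates 1 and 2 and −1.47 in replicates 3 and 4, again with all 12 negative in each. The early EOM change, at 18 against 6 months, was negative for 11 of 12 sets in each, with medians of −0.65 (−0.99 to 0.33) in replicates 1 and 2 and −0.45 (−0.73 to 0.05) in replicates 3 and 4. Over the whole span in EOM, 11 of 12 were negative in replicates 1 and 2 (median −0.94) and 12 in replicates 3 and 4 (median −1.32). Replicates 3 and 4 both exceeded replicates 1 and 2 on 0, 3 and 1 of the 13 probe sets in EOM at 6, 18 and 30 months, and on 3, 10 and 8 of 13 in EDL. Without the 2 EDL arrays with raised actin ratios, the median of the 13 EDL changes was −1.91 at 18 against 6 months and −1.89 at 30 against 6 months.

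None of the 6 fibroblast markers on the array was called at 18 or 30 against 6 months in either muscle. Of all probe sets, 0.174% and 0.0348% were called in EOM in either direction, and 0.244% and 0.383% were called lower in EDL. With shares this small, nothing is read from the count. The median log2 changes of the 6 were −0.02 and −0.40 in EOM and −0.64 and −0.36 in EDL. In EDL every marker was lower at 18 than at 6 months, by log2 changes from −0.263 (Dcn) to −1.720 (Lum, lumican). The Lum arrays did not overlap between these ages. S100a4, 1 of the 6, was higher in EDL at 30 than at 18 months (log2 change 1.499). Dcn, the collagen-binding proteoglycan decorin and also 1 of the 6, averaged 19714, 19076 and 17817 units in EOM and 11369, 9689 and 10345 units in EDL at 6, 18 and 30 months. Gland markers (all 6 on the array) summed to 2574 to 7234 units in EDL at 30 months, against 242 to 717 at 6 months. Most of that rise was Klk1, with EDL means of 162 units at 6 months and 3509 at 30 months. Klk1 and Krt18 were the only 2 of the 6 called higher there (1.48% of all probe sets). At the same ages in EDL Spt1 averaged 21.1 and 28.9 units and Smr3b 93.8 and 69.5. In EOM the gland sums were larger, at 3553 to 19415, 3404 to 34047 and 4528 to 6779 units at 6, 18 and 30 months. Spt1 averaged 5945, 14210 and 229 units there. The part of either list in the collagen values was not tested.

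Averaged over the 3 ages, type III collagen, Pcolce and 1 Sparc probe set were higher in EOM than in EDL. This contrast between muscles was not used to pick the members and was tested with limma across all 5741 probe sets, with Benjamini-Hochberg adjustment. The unequal age changes of the 2 muscles, for which the members were chosen, enter this mean. It is therefore no measure of a difference present at every age, and the values by age follow below. The test called 4 of 13 higher and 0 lower in EOM, among 22.3% of all probe sets higher and 20% lower. Both Col3a1 sets are among the 4, and nothing is read from the count. Col3a1 was higher by a log2 difference of 0.92 (SE 0.23, adjusted p = 0.0023) on M21354_s_at and 0.88 (SE 0.21, adjusted p = 0.0013) on X70369_s_at, 1.89-fold and 1.85-fold. Pcolce was 1.62-fold higher (log2 0.70, SE 0.17, adjusted p = 0.0013), and Sparc rc_AA891204_s_at 1.60-fold higher (log2 0.68, SE 0.18, adjusted p = 0.003).

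The type I chains did not pass this test. The limma log2 differences for Col1a1 were 0.00, 0.00, −0.23 and 0.09 with SEs of 0.22, 0.27, 0.23 and 0.23, and adjusted p-values of 1, 1, 0.448 and 0.78. Col1a2 had 0.19 (SE 0.17, limma adjusted p = 0.394) and Col5a2 0.55 (SE 0.23, limma adjusted p = 0.06). Col5a2 was called when EDL replicate 3 at 6, 18 or 30 months, EOM replicate 4 at 18 months or EOM replicate 3 at 30 months was left out (limma adjusted p 0.0074 to 0.049). The other Sparc sets had 0.35, 0.35 and −0.14 on Y13714_at, rc_AA946313_s_at and rc_AA892248_at (limma adjusted p = 0.104, 0.169 and 0.462). The 4 Sparc sets therefore differed in their calls.

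The muscle difference was not even over ages. Of the 16 array pairs at each age, EOM was above EDL in 10, 16 and 14 pairs at 6, 18 and 30 months on both Col3a1 sets, in 9, 16 and 14 for Pcolce and in 8, 16 and 14 for Sparc rc_AA891204_s_at. Over the 13 sets the median EOM minus EDL log2 difference was −0.05 at 6 months, 0.99 at 18 months and 0.38 at 30 months. At 6 months 0 of 13 were called (17.9% of all in either direction), at 18 months 6 were called higher (14.1%), and at 30 months Pcolce alone was called higher (11.4%). Col1a2 at 6 months was 1.75-fold lower in EOM than in EDL and at 18 months 2.39-fold higher, and at 30 months its log2 difference was 0.11 (SE 0.29).

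The tested difference also depended on the replicate set. In replicates 1 and 2 alone limma called 7 of 13 higher in EOM, and the 4 named probe sets had log2 differences of 1.52 (Col3a1 M21354_s_at), 1.35 (Col3a1 X70369_s_at), 1.24 (Pcolce) and 1.00 (Sparc rc_AA891204_s_at). In replicates 3 and 4 alone it called 0 of 13, with log2 differences of 0.32, 0.42, 0.16 and 0.36 in the same order and adjusted p-values of 0.413, 0.331, 0.573 and 0.296. Shares of all probe sets called in these smaller fits are not given here, so nothing is read from the 2 counts. At 30 months the median of the 12 sets was 0.91 in replicates 1 and 2 and −0.14 in replicates 3 and 4. The direction of the 4 called differences was the same in both sets, and their size was not. Among markers of other cells, 5 of 6 fibroblast, 4 of 4 smooth muscle and pericyte and 4 of 5 Schwann cell and nerve genes tested were higher in EOM, against 22.3% of all probe sets. The same held for 4 of 6 gland, 3 of 5 adipocyte, 2 of 3 bone, 2 of 2 erythrocyte, 1 of 5 endothelium and 1 of 3 macrophage genes. Of the tendon and cartilage genes 3 of 3 were lower in EOM, against 20% of all. Tendon and cartilage markers summed to 544 to 1666 units on EOM arrays and 888 to 4915 units on EDL arrays, and the cartilage genes Acan and Col2a1 were under the 25th percentile on 23 and 21 of the 24 arrays. The part of these cells in the difference was not tested.

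**Figure D3:**
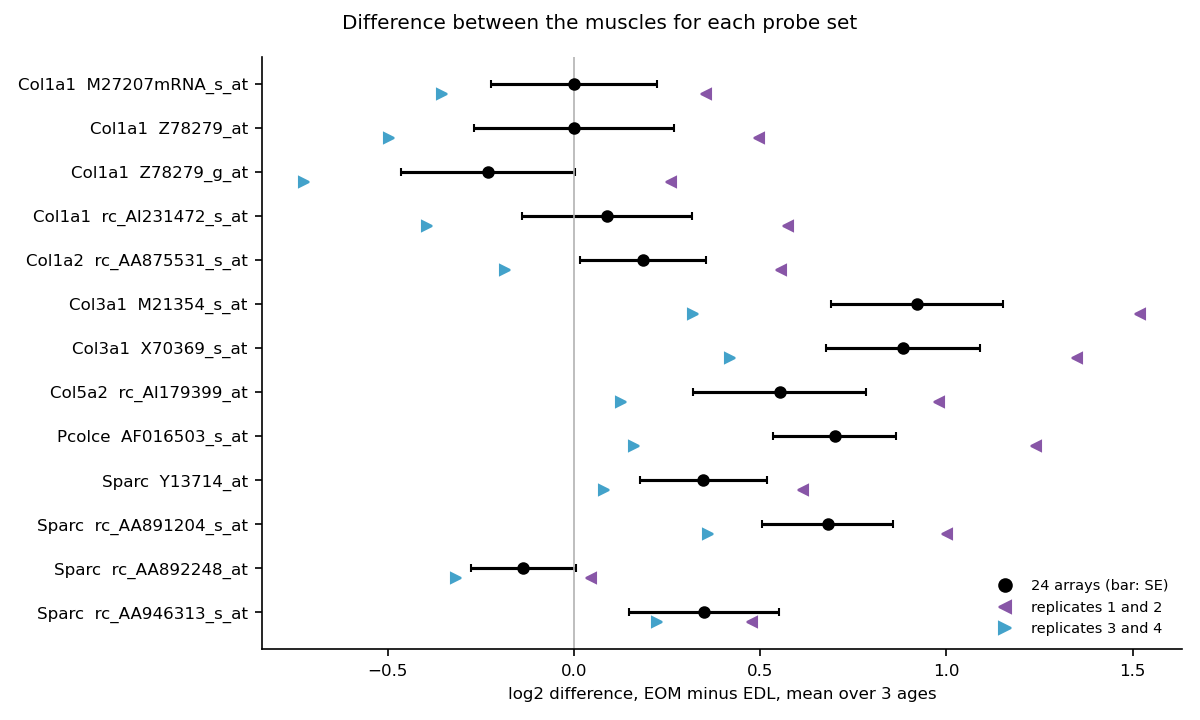
Log2 difference between the muscles, EOM minus EDL averaged over 3 ages (x axis), for each of the 13 probe sets (rows); circles with SE bars use 24 arrays and triangles use replicates 1 and 2 or replicates 3 and 4. Both Col3a1 sets, Pcolce and Sparc rc_AA891204_s_at lie at 0.68 to 0.92 over 24 arrays and at 0.16 to 0.42 in replicates 3 and 4.

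Fn1 and Lox had the profiles most like the type I and III chains. Likeness was the Pearson correlation, over the 24 arrays, with the mean standardised log2 profile of the brightest probe sets of Col1a1, Col1a2 and Col3a1, among 3413 other genes. It is a description, and the arrays share groups and replicate sets. The 8 highest were Fn1 (fibronectin, 0.77), Lox (lysyl oxidase, which crosslinks collagen and elastin, 0.77), Ptgis (prostacyclin synthase, 0.76), Medag (0.72), Eln (elastin, 0.71), Pros1 (protein S, 0.66), Fxyd2 (a regulator of the sodium pump, 0.66) and Thy1 (a fibroblast surface protein, 0.64). After group means were subtracted their correlations were 0.75, 0.74, 0.59, 0.70, 0.69, 0.51, 0.69 and 0.35.

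The 8 did not all share the EOM course. Fn1 had EOM means of 1826, 2076 and 1549.6 units and EDL means of 1898, 851 and 1002 units at 6, 18 and 30 months, so that its EOM mean was highest at 18 months. These are values of its brightest probe set, and of its 2 other sets 1 had the same sign of change in EDL at 18 against 6 months and 0 at 30 against 6 months. Lox averaged 243, 164 and 139 units in EOM and 401, 139.8 and 195 units in EDL. Eln averaged 789.9, 656 and 549 units in EOM and 501, 311 and 306 units in EDL, lower at each later age in both muscles. Lox, like Col1a2, had its highest mean in EDL at 6 months, while Eln had its highest in EOM at 6 months.

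**Figure D4:**
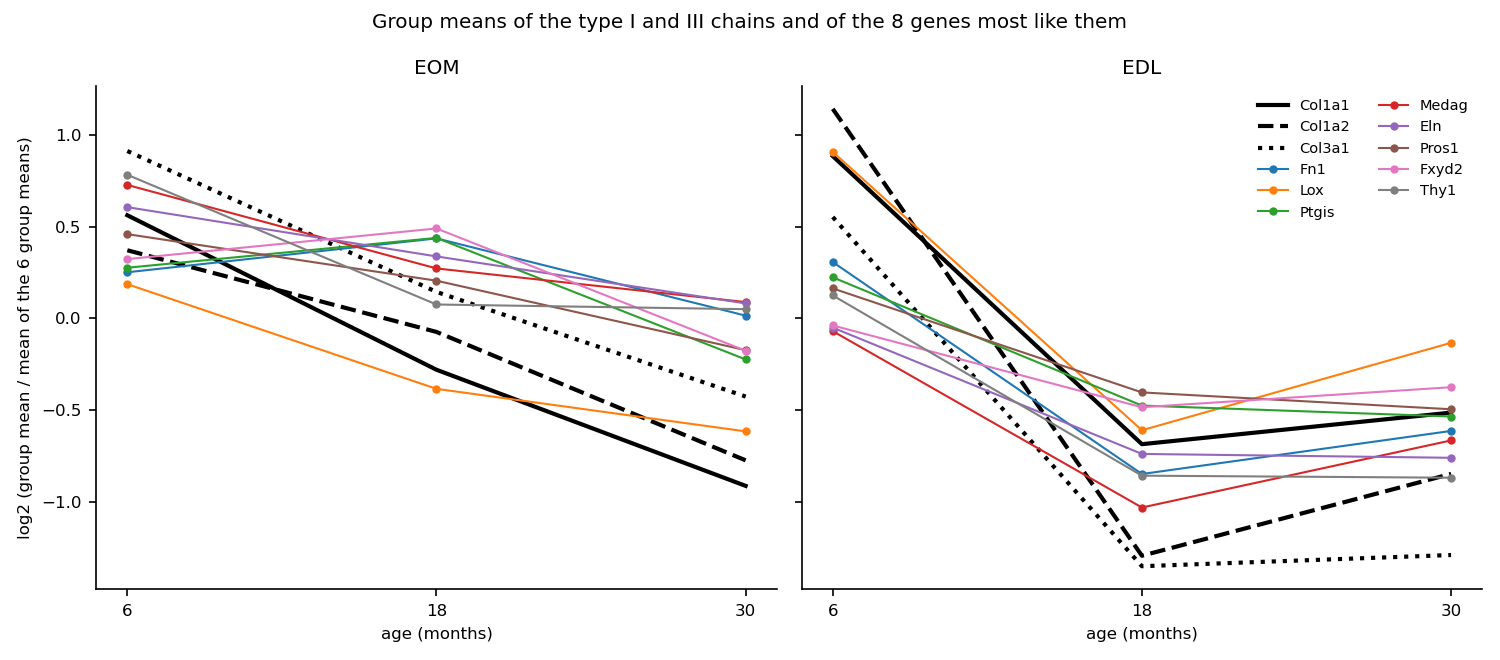
Log2 of each group mean over the mean of the 6 group means (y axis) against age in months (x axis), EOM left and EDL right, for Col1a1, Col1a2 and Col3a1 (black) and the 8 genes most like them (colours). In EOM Fn1, Ptgis and Fxyd2 have their highest mean at 18 months, and in EDL all the lines drop between 6 and 18 months.

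Beyond the 6 members, 159 genes of collagen biology were listed in 6 roles, of which 101 were on the array and 80 were tested, each by its brightest probe set. In EOM none was called at any pair of ages by limma (0.0174% to 0.174% of all in either direction). At 30 against 6 months 5 were lower and 0 higher at an unadjusted p under 0.05. In EDL at 18 against 6 months 2 of 80 were called lower and 0 higher (0.244% and 0.0348% of all), with 16 lower and 2 higher at an unadjusted p under 0.05. The share of all probe sets at the unadjusted threshold is not given here, so nothing is read from the unadjusted counts.

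The 2 genes called lower in EDL at 18 against 6 months were matrix glycoproteins, named here after their values were seen. Postn (periostin, which takes part in collagen crosslinking) fell to 48.9 ± 29.6 units in EDL at 18 months, against 233 ± 161 at 6 months (SD, n = 4 each), with 1 array at 18 months set to the floor. The log2 change of Postn was −2.07 (SE 0.44, limma adjusted p = 0.0405). Mgp (matrix Gla protein, an inhibitor of calcification) fell to 1958 ± 486 units against 3714 ± 255 (log2 −0.96, SE 0.21, limma adjusted p = 0.0495). At 30 months the EDL means were higher, at 157 units for Postn and 3176 units for Mgp, but neither change from 18 months was called. These log2 changes were 1.48 (SE 0.44, limma adjusted p = 0.118) for Postn and 0.73 (SE 0.21, limma adjusted p = 0.101) for Mgp. Both calls at 18 against 6 months lay close to the threshold. They were lost in 22 of 37 alternatives for Postn (adjusted p up to 0.742) and 29 of 37 for Mgp (up to 0.896), with the direction kept in all. Median log2 changes in EDL at 18 against 6 months were −0.46 for fibril-binding and matrix glycoproteins (18 genes), −0.25 for folding, modification, cleavage and crosslinking (15), −0.25 for other collagen chains (5), −0.22 for proteases and inhibitors (17), −0.16 for collagen receptors (5) and 0.14 for growth factors that act on collagen genes (20). The median over all probe sets was 0.05.

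In EDL 2 of the 80 genes were called higher and 0 lower at 30 against 6 months (1.48% and 0.383% of all). With arrays centred on their medians, the median of all probe sets in this contrast was −0.12 in place of 0.03, and 55 probe sets were called higher and 26 lower in place of 85 and 22. Ctsl is cathepsin L, a lysosomal protease, and had EOM means of 2850.3, 2494 and 2220.2 units at 6, 18 and 30 months. In EDL it was at 3404 ± 556 units at 30 months and 1630.2 ± 242 at 6 months (log2 1.06, SE 0.16, limma adjusted p = 0.000265). Ltbp1 (latent TGF-beta binding protein, which holds TGF-beta in the matrix) was in EDL at 769 ± 159.9 units at 30 months and 326 ± 125 at 6 months (log2 1.30, SE 0.28, limma adjusted p = 0.0092). The Ltbp1 call was lost in 4 of 37 alternatives, namely without the EDL arrays with raised actin ratios (limma adjusted p = 0.113), with only the groups compared in the fit (0.123), in replicates 1 and 2 (0.0598) and in replicates 3 and 4 (0.621). The Ctsl call was lost in replicates 3 and 4 (log2 0.72, limma adjusted p = 0.576). These are values of the brightest Ctsl probe set. Its 1 other set had the same sign in EDL at 30 against 6 and at 30 against 18 months, and was called in neither. Both genes were also higher at 30 than at 18 months, by 1.24 (SE 0.16, limma adjusted p = 3.95e-05) and 1.13 (SE 0.28, limma adjusted p = 0.0317) on the log2 scale, in a contrast that called 1.52% of all probe sets higher.

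Between the muscles, averaged over ages, limma called 40 of the 80 genes higher in EOM and 9 lower, against 22.3% higher and 20% lower among all probe sets. At an unadjusted p under 0.05 the counts were 43 and 10, for which no share of all is given here. The counts by list that follow are to be read against the 22.3% and 20%, near which the receptors (1 of 5 higher) and the growth factors (4 higher and 5 lower of 20) lay. Among other collagen chains 3 of 5 were higher: Col4a5, a basement membrane chain (2.98-fold, adjusted p = 1.49e-07), Col5a1, the partner of Col5a2 in type V collagen (1.59-fold, adjusted p = 0.0072), and Col15a1 (1.51-fold, adjusted p = 0.0014). Among folding, modification, cleavage and crosslinking genes 10 of 15 were higher and 1 lower. Serpinh1, the collagen chaperone HSP47, was 1415 ± 330.4, 1248 ± 312 and 1022 ± 195 units in EOM at 6, 18 and 30 months, against 825 ± 373, 451 ± 96.5 and 482 ± 63.9 in EDL (2.20-fold, limma adjusted p = 1.51e-06). Pdia3, a disulfide isomerase, was 2.55-fold and Loxl1, a lysyl oxidase relative, 2.12-fold higher in EOM, and Plod2, a lysyl hydroxylase, was 1.64-fold lower.

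The fibril-binding proteins split. Of 18 tested, 12 were higher in EOM and 3 lower. Lum (lumican, a fibril-binding proteoglycan) was 1532 ± 146, 1567 ± 446 and 998 ± 221 units in EOM at 6, 18 and 30 months, against 585 ± 447, 167 ± 71 and 343 ± 202 in EDL (4.64-fold, limma adjusted p = 3.14e-08). Postn (3.73-fold) and Fbln5, an elastic fibre protein (3.63-fold), followed. The 3 lower were Comp (3.99-fold, limma adjusted p = 5.86e-07), Fmod (3.28-fold, limma adjusted p = 0.0014) and Thbs4 (2.39-fold, limma adjusted p = 0.0007), which are all known from tendon and also stand in the tendon and cartilage marker list.

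Of 17 proteases and inhibitors 10 were higher in EOM and 0 lower, led by Ctsk, the collagen-cleaving cathepsin K (3.14-fold), Mmp23 (2.87-fold) and Plat, tissue plasminogen activator (2.57-fold). Of 5 collagen receptors Ddr2, a kinase that binds fibrillar collagen, was higher (2.13-fold, limma adjusted p = 0.004). Of 20 growth factors and their mediators 4 were higher and 5 lower. Igf1 was 2.90-fold higher on its brightest probe set, although only 1 of its 4 other sets had the same sign, Tgfb1 was 2.18-fold higher and Agtr1a, the angiotensin receptor, 2.05-fold higher. Smad3, which carries the TGF-beta signal to the nucleus, was 2.73-fold lower, Ccn1 1.90-fold lower and Agt, angiotensinogen, 1.60-fold lower (limma adjusted p = 0.0333, lost in 14 of 35 alternatives). Some of these calls rested on 1 replicate set, with the direction kept in both. In replicates 3 and 4 alone Tgfb1 (log2 0.26), Agtr1a (0.51), Col5a1 (0.26), Ddr2 (0.80) and Loxl1 (0.68) were not called (limma adjusted p = 0.448, 0.0728, 0.436, 0.104 and 0.0671), and in replicates 1 and 2 alone Thbs4 (−0.30) and Plod2 (−0.66) were not (0.23 and 0.0651). Ctsk and Mmp23 were called in both, at log2 2.39 and 2.34 in replicates 1 and 2 and 0.91 and 0.71 in replicates 3 and 4. The list medians were 0.60, 0.50, 0.68, 0.61, −0.06 and 0.12 on the log2 scale for chains, folding, fibril binding, proteases, receptors and growth factors, against −0.06 over all probe sets tested.

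**Figure D5:**
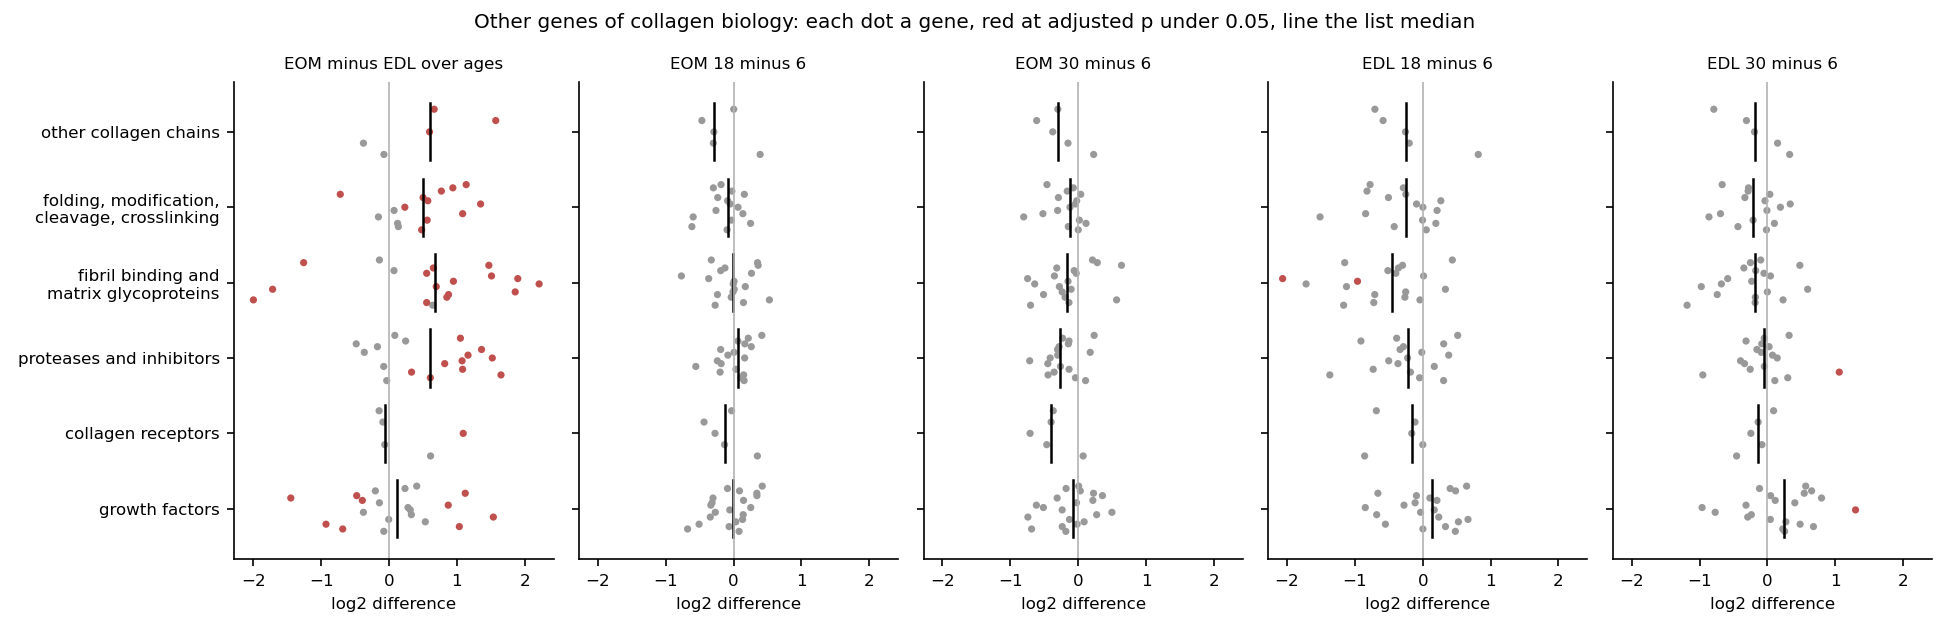
Log2 differences (x axis) of the tested genes of 6 collagen-related lists (rows), 1 dot a gene and a line at the list median, in 5 comparisons (panels); red dots have an adjusted p under 0.05. EOM minus EDL holds 40 red dots to the right of 0 and 9 to the left, the 2 EOM age panels hold none, EDL 18 minus 6 holds Postn and Mgp, and EDL 30 minus 6 holds Ctsl and Ltbp1.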

How the data were processed

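RNA from rat EOM and EDL was measured on 24 Affymetrix Rat Genome U34 arrays. Per the labels' notes and the design text, the authors produced the deposited table, a linear intensity for every probe set on every array, in Affymetrix Microarray Suite 5.0. A mean trimmed of extreme values was 500.7 to 501.1 units on all arrays, so they were taken as already scaled. The labels name dyes and the design text a biotin stain, so the single values were treated as 1-colour. Values below an array's 25th percentile (21.4 to 34.5 units) were set to it and log2 was taken. Probe sets above the 40th percentile (53.8 to 83.8 units) on at least 3 arrays of a group, 5741 of 8740, were fitted as 6 group means with limma 3.58.1 in R 4.3.3 (eBayes with an intensity trend), with Benjamini-Hochberg adjustment and a threshold of 0.05. The fit was tested on simulated data. The number of arrays limits the precision, and fold changes of probe sets near the floor are understated. Probe sets ending in _s_at can by Affymetrix naming match more than 1 transcript, and 8 of the 13 do so end, so related collagen genes may share signal there. Names come from the platform annotation, and of 7006 probe sets with 1 symbol, 6985 had an Entrez ID in the RefSeq table. Members and gene lists were chosen with earlier results of these data known. Genes named from the lists are the 3 largest called rises and falls per list and comparison, and the 8 most alike. Tables were made with Python 3.11.15, numpy 2.4.6 and pandas 2.3.3.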

Additional observations from a re-analysis of the deposited data

Results flagged for a closer look

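In 5 of the 78 groups of 4 arrays examined (13 probe sets in 6 groups), 1 array stood apart from the other 3 by more than Dixon's critical value, which chance gives in about 1 group in 20. Of the 5 flags, 4 fell on replicate 3. Both Col3a1 flags in EOM at 30 months came from the same array and are not independent. For Col3a1 in EOM at 30 months replicate 3 was low on both probe sets, at 836.0 units on X70369_s_at, against 2121 to 2481 on the others, and at 618 units on M21354_s_at, against 1154 to 1197. For Col3a1 X70369_s_at in EDL at 18 months replicate 3 was high, at 1362 units, against 875 to 937. For Col1a1 rc_AI231472_s_at in EOM at 18 months replicate 3 was high, at 3566 units, against 2451 to 2513. For Pcolce in EDL at 6 months replicate 4 was high, at 855 units, against 496 to 532.

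Ctsl, the lysosomal protease cathepsin L, changed differently with age in the muscles on its brightest probe set. The limma test of the difference of changes, EOM minus EDL, gave −1.40 on the log2 scale at 30 against 18 months (SE 0.228, adjusted p = 0.002) and −1.41 at 30 against 6 months (SE 0.228, adjusted p = 0.002). No member of the collagen group passed this test at any pair of ages.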

How the results depend on the processing

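Each result was recomputed under up to 38 alternatives (normalization, floor, filter, fit and arrays used), of which the one without the 2 EDL arrays with raised actin ratios was added after seeing the data. No direction of a called value reversed. The medians of the members' age changes at 30 against 6 months were −1.24 to −0.82 in EOM and −1.98 to −1.36 in EDL. In EOM they were −0.65 to −0.23 at 18 against 6 months and −0.90 to −0.18 at 30 against 18 months. Which EOM step was larger thus depended on the arrays used. In EDL the same medians were −1.91 to −1.365 and −0.22 to 0.21. The member probe sets called higher in EOM over ages numbered 4, and 4 to 5 with 1 array left out, against 7 in replicates 1 and 2 alone and 0 in replicates 3 and 4 alone; the cause was not tested. Of the other collagen genes in EDL at 30 against 6 months, 2 were called higher, but 1 in replicates 1 and 2, 0 in replicates 3 and 4, 1 without the arrays with raised actin ratios and 1 with only the groups compared. There 0 were called lower, but 1 in replicates 1 and 2, and 0 to 1 with 1 array left out (1 without EDL at 6 months replicate 1 or EDL at 30 months replicate 3). Between the muscles 40 were called higher and 9 lower, but 25 higher in replicates 3 and 4 and 4 lower in replicates 1 and 2. Fits on 2 replicates a group hold fewer arrays. Their shares over all probe sets are not given here, so nothing is read from their counts. With the replicate number as a block, 5 member sets were called (Col5a2 joined, adjusted p = 0.0337), and 43 and 9 of the other genes between the muscles. Same-numbered arrays shared deviations in part (median correlation 0.28, against −0.12 for other numbers, lowest −0.01), and 22 of 24 arrays correlated best with their own number, a hint from the data and not from the design.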
